A study of Mus musculus with 6 samples.

Results

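The peaks described here are the 1261 Gli3 peaks of the embryonic mouse face that share at least 1 bp with a Gli3 peak of the mandibular prominence (MNP) and at least 1 bp with a Hand2 peak of the MNP, of 5752 Gli3 peaks in the whole face list (21.9%). They are called triple-shared peaks below. They were chosen by overlap of peak calls, so the overlap itself is a description and carries no test. ChIP-seq with an antibody against FLAG was performed on CD1 mouse embryos at E11.5 with a FLAG tag in the endogenous *Gli3* or *Hand2* gene. The 3 groups were Gli3 in the whole face (*Gli3* 3XFlagbio), Gli3 in the MNP (*Gli3* 3XFlagbio) and Hand2 in the MNP (*Hand2* 3XFlagbio in the labels, *Hand2* 3xFlag in the methods of the study), each with 2 replicates made from pooled tissue, 6 samples in all. No embryo was treated, and each group carried the tag of its own TF. The text of the series gives E10.5 and the labels E11.5. Tissue identity could not be checked against marker genes, since the files hold positions only.

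Each deposited list was merged from both replicates, so no value below has an error between embryos, and the number of reads behind a peak is unknown. Tests count peaks, which are not replicates of animals, and their p-values, all two-sided, and intervals cover counting error over peaks only. The triple-shared peaks were set against 2 other classes of the whole face list. The 901 Gli3 peaks of both tissues without Hand2 touch an MNP Gli3 peak but no Hand2 peak, and the 1475 face-only peaks with Hand2 touch a Hand2 peak but no MNP Gli3 peak. The remaining 2115 face-only peaks touch neither list. Of the triple-shared peaks, 37 lay in a repeated array of rRNA genes, and values that move without them are given both ways. The tests treat peaks as independent, although 144 triple-shared peaks (11.4%) had another within 10 kb. Without the peaks over rRNA genes these were 107 of 1224 (8.74%).

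Gli3 is a zinc finger TF of the Hedgehog pathway. In the absence of ligand it is cut to a repressor, and when Hedgehog ligand binds Ptch1 the full-length form is spared. Gli TFs bind a GC-rich site whose core is GACCACCC, the canonical Gli-binding motif (cGBM), and GACCTCCC, in which the fifth base differs, is the divergent form (dGBM). Both names stand here for these exact sequences only. To sort overlapping peaks, the study used looser rules. These were a partial match to a matrix for the cGBM and, without a cGBM, at least CCTCC for the dGBM. Shares given here cannot be set against shares by those rules. A peak without the exact sequences may still hold a dGBM by them. Hand2 is a basic helix-loop-helix TF that binds E-boxes as a dimer, among them CAGATG, and it patterns the distal jaw downstream of endothelin signaling. Neural crest cells fill the MNP and give rise to the skeleton of the lower jaw.

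The sequences that carry both kinds of site are shown first, because they let the distance between a Gli motif and an E-box be read directly. They are the triple-shared peaks with the fewest bases between the motifs, from GRCm38 (mm10). Capitals mark GACCACCC and CAGATG or their reverse complements, and each peak is named by the nearest protein-coding TSS. In the *Dock6* intron the motifs overlapped by their shared C, and at *Slc22a22* and *Smarca4* no base lay between them.
Dock6 (chr9:21846982-21847024, minus strand): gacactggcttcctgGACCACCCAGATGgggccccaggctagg
Slc22a22 (chr15:57509661-57509704, minus strand): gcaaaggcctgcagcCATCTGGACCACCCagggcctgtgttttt
Smarca4 (chr9:21615851-21615886, plus strand): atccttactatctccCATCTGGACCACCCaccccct
Arrb1 (chr7:99534266-99534311, plus strand): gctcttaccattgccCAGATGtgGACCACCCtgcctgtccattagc
Mllt3 (chr4:87768166-87768212, plus strand): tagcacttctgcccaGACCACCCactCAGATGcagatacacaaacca
Micall2 (chr5:139724771-139724818, plus strand): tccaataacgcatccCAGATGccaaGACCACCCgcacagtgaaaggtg

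The 6 peaks in which the divergent GACCTCCC lay closest to a CAGATG are shown for the same reason. The *Rps6kb2* peak repeated the arrangement of *Slc22a22* and *Smarca4*, with CATCTG directly before the Gli motif. The *Bmp7* peak lay in an intron of the gene of a bone morphogenetic protein and held 1 copy each of GACCACCC, GACCTCCC and CAGATG.
Rps6kb2 (chr19:4163426-4163469, plus strand): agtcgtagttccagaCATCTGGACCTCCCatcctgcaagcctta
Bmp7 (chr2:172888332-172888382, plus strand): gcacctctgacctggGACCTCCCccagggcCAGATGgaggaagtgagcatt
Lrpap1 (chr5:35156610-35156669, minus strand): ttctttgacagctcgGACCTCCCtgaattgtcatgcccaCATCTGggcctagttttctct
Ostf1 (chr19:18420405-18420470, plus strand): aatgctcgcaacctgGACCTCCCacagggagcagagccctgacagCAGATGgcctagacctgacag
Vrk1 (chr12:105911568-105911622, minus strand): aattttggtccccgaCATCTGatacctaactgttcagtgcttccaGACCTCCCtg
Oaf (chr9:43261669-43261739, minus strand): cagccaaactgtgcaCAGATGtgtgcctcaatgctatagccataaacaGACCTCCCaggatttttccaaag

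Peaks with both motifs were few. GACCACCC and CAGATG occurred together in 50 of 1261 triple-shared peaks (3.97%), compared to 35 of 901 Gli3 peaks of both tissues without Hand2 (3.88%). A median of 42 bases lay between the motifs in the triple-shared peaks, with 11 peaks at 20 bases or fewer. GACCTCCC and CAGATG occurred together in 16 triple-shared peaks, with a median of 41 bases between them. CAGATG was present in 24.6% of the triple-shared peaks with GACCACCC (95% interval 19.2 to 31.0%) and in 21.1% of those without it (18.7 to 23.6%), so the intervals overlapped. Of all triple-shared peaks, 785 (62.3%) held none of GACCACCC, GACCTCCC or CAGATG in the middle 200 bp, and 961 (76.2%) held neither Gli 8-mer anywhere in the peak.

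The question of the first comparison was how Gli3 peaks of both tissues differ where Hand2 is also called. The canonical Gli motif was less frequent and the E-box more frequent in the triple-shared peaks than in the Gli3 peaks of both tissues without Hand2. An exact match on either strand within the middle 200 bp of the face peak was counted, so that every peak was searched over the same length. Results can still depend on peak width, and values for wide peaks are given in the section on processing. GACCACCC was present in 203 of 1261 triple-shared peaks (16.1%, interval 14.2 to 18.2%), compared to 257 of 901 (28.5%, 25.7 to 31.6%), a difference of -12.4 percentage points (-16.0 to -8.87). The odds ratio was 0.481 (0.388 to 0.595; Fisher's exact test, p = 4.9e-12, q = 8.1e-08 over all 32896 8-mers). CAGATG was present in 273 triple-shared peaks (21.6%, 19.5 to 24.0%), compared to 118 (13.1%, 11.05 to 15.5%), a difference of 8.55 points (5.34 to 11.7). Its odds ratio was 1.83 (1.44 to 2.34; Fisher's exact test, p = 3.1e-07, q = 8.0e-05 over all 6-mers). A Hand2 call separates these classes and Hand2 binds CAGATG, so the E-box test is not independent of the rule. It describes the size of the difference only.

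In percentage points, both differences were larger outside promoters. A promoter peak has its midpoint within 1 kb of the TSS of a protein-coding gene. In the other peaks, GACCACCC was present in 149 of 872 triple-shared peaks (17.1%), compared to 201 of 583 Gli3 peaks of both tissues without Hand2 (34.5%). In promoter peaks it was present in 54 of 389 triple-shared peaks (13.9%), compared to 56 of 318 (17.6%), and the intervals overlapped. CAGATG reached 27.6% of triple-shared peaks outside promoters, compared to 17.3%, while in promoters the shares were 8.23% and 5.35%. Whether the difference itself depends on the promoter class was not tested.

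**Figure D1:**
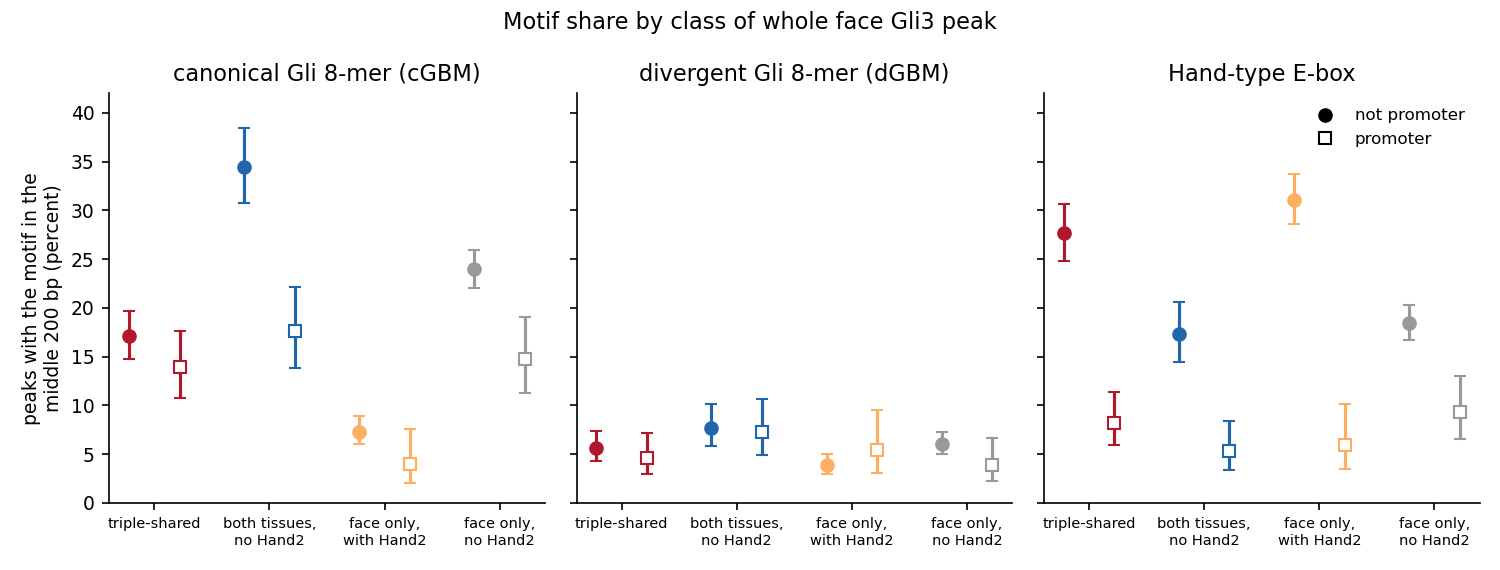
Share of whole face Gli3 peaks with GACCACCC (cGBM), GACCTCCC (dGBM) or CAGATG (E-box) in the middle 200 bp, in percent, by class, for peaks outside promoters (filled circles) and in promoters (open squares), with 95% Wilson intervals as bars. Outside promoters the triple-shared peaks lie at 17.1% for the cGBM and 27.6% for the E-box, and the peaks of both tissues without Hand2 at 34.5% and 17.3%.

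The divergent motif differed less. GACCTCCC was present in 67 triple-shared peaks (5.31%) and in 68 Gli3 peaks of both tissues without Hand2 (7.55%), with an odds ratio of 0.688 (0.477 to 0.990; Fisher's exact test, p = 0.038), and q was 1 over all 8-mers. Without the peaks over rRNA genes the odds ratio was 0.709 (Fisher's exact test, p = 0.059). Among peaks with GACCNCCC, the copy nearest to the midpoint had T rather than A at the fifth base in 65 of 267 triple-shared peaks (24.3%), compared to 67 of 317 (21.1%). The difference of 3.21 points had an interval of -3.57 to 10.1 (Fisher's exact test, p = 0.37), so neither a lower nor a higher share of T was shown. C or G stood at this base in 31 and 32 of 330 triple-shared peaks (9.39% and 9.70%), compared to 17 and 10 of 344 (4.94% and 2.91%). The homeodomain site TAATTA was present in 6.42% of triple-shared peaks and 3.77% of the Gli3 peaks of both tissues without Hand2, which did not pass over all 6-mers (Fisher's exact test, q = 0.12).

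For scale, GACCACCC occurs in 0.328% of all 200 bp tiles of the genome and in 0.465% of the 200 bp windows around the TSSs of protein-coding genes. It was present in 8.35% of all MNP Gli3 peaks and in 0.582% of all Hand2 peaks. CAGATG occurs in 15.02% of the tiles, in 9.48% of the TSS windows, in 10.6% of MNP Gli3 peaks and in 28.2% of Hand2 peaks. The E-box share of the triple-shared peaks (21.6%) therefore lay between those of the MNP Gli3 and Hand2 lists. GACCTCCC occurs in 0.449% of tiles and TAATTA in 7.20%.

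The question of the second comparison was how face Gli3 peaks under a Hand2 peak differ where Gli3 is also called in the MNP. The triple-shared peaks held the canonical Gli motif more often and lay at promoters more often than the face-only peaks with Hand2. GACCACCC was present in 16.1% of triple-shared peaks, compared to 101 of 1475 face-only peaks with Hand2 (6.85%, interval 5.67 to 8.25%). The odds ratio was 2.61 (2.02 to 3.39; Fisher's exact test, p = 1.8e-14, q = 6.0e-10). An MNP Gli3 call separates these classes and Gli3 binds GACCACCC, so this test is likewise not independent of the rule. Outside promoters the shares were 17.1% and 7.31%. Promoter peaks made up 389 of the triple-shared peaks (30.8%) and 202 of the face-only peaks with Hand2 (13.7%), an odds ratio of 2.81 (2.31 to 3.42; Fisher's exact test, p = 1.5e-27).

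CAGATG was less frequent in the triple-shared peaks than in the face-only peaks with Hand2, in 21.6% compared to 408 of 1475 (27.7%), an odds ratio of 0.723 (0.603 to 0.865; Fisher's exact test, p = 3.2e-04, q = 0.0030). The difference was smaller, and no longer passed, with promoters or base composition taken into account. Outside promoters the shares were 27.6% and 31.1%, with an odds ratio of 0.846 (0.696 to 1.03; Fisher's exact test, p = 0.092), and a logistic model with GC content and promoter class gave 0.920 (0.765 to 1.11). Median GC content was 55.5% in triple-shared peaks, compared to 50% in face-only peaks with Hand2 and 55% in Gli3 peaks of both tissues without Hand2. GACCTCCC was present in 5.31% and 4.07%, and the difference of 1.25 points had an interval of -0.339 to 2.89 (Fisher's exact test, p = 0.14). TAATTA was less frequent in the triple-shared peaks, in 6.42% compared to 9.90% (Fisher's exact test, q = 0.0070). Outside promoters the shares were 8.83% (7.12 to 10.9%) and 10.8% (9.18 to 12.6%), and the intervals overlapped.

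The canonical Gli motif did not lie at the middle of the face peaks. In the triple-shared peaks, GACCACCC lay at a higher genome coordinate than the midpoint of the face peak in 168 of 206 occurrences (81.6%, interval 75.7 to 86.3%), with a median offset of 37.5 bp. The offset was on the same side for copies on the plus strand (43 bp) and on the minus strand (33 bp). It was also present in the Gli3 peaks of both tissues without Hand2 (80.6%, 28 bp), so it is no property of the triple-shared peaks. In the list of all MNP Gli3 peaks the share was 47.9%, with a median of -1 bp. The midpoint of the MNP Gli3 peak lay a median of 44.5 bp above that of the face peak in the triple-shared peaks, and that of the Hand2 peak 37.5 bp above. With the 200 bp window moved 40 bp to higher coordinates, chosen after this was seen, GACCACCC was present in 17.2% of triple-shared peaks and 31.0% of Gli3 peaks of both tissues without Hand2 (odds ratio 0.464, Fisher's exact test, p = 1.3e-13), and CAGATG in 22.4% and 13.3%.

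**Figure D2:**
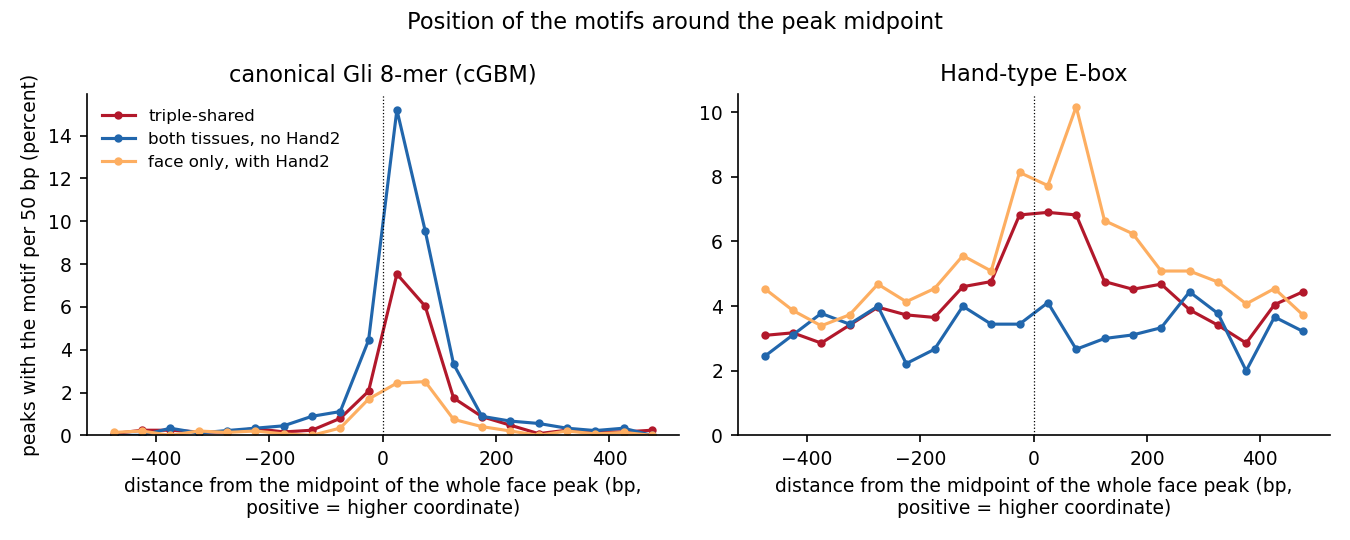
Share of peaks with GACCACCC (left) or CAGATG (right) in each 50 bp of sequence, in percent, by distance from the midpoint of the whole face Gli3 peak in bp, positive toward higher genome coordinates. In the triple-shared peaks the cGBM reaches 7.53% in the 50 bp above the midpoint and 2.06% in the 50 bp below it, while the E-box stands at 6.90% and 6.82%, compared to 3.41% per 50 bp beyond 300 bp.

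Every 6-mer was also compared, so that sequences outside these motifs could be seen. Against the Gli3 peaks of both tissues without Hand2, 51 6-mers (2.45%) were more frequent and 24 (1.15%) less frequent in the triple-shared peaks at q below 0.05. Of these, 9 (0.433%) and 15 (0.721%) were called without the peaks over rRNA genes, and all 24 were among the first 75. The 6-mer with the smallest p among the 9 was CAGATG (22.3% compared to 13.1%), and ATCTGG (17.9% compared to 11.7%) and ACATCT (13.0% compared to 7.99%) hold part of its reverse complement. CCAGGC was present in 30.8% compared to 22.3%. AACGTG, present in 4.49% compared to 1.78%, was the rarest of the 9.

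The less frequent 6-mers included pieces of the canonical site. Without the peaks over rRNA genes, GACCAC was present in 33.7% of triple-shared peaks and 48.4% of Gli3 peaks of both tissues without Hand2 (Fisher's exact test, q = 1.6e-08), and CCACCC in 53.6% compared to 66.5%. CACCCA, which overlaps the end of the motif, was present in 39.7% compared to 53.1%. CCAGTA, present in 5.07% compared to 10.99% (Fisher's exact test, q = 1.5e-04), and AAGGTG, in 6.94% compared to 12.3%, are not part of GACCACCC. Among 8-mers, 5 (0.0152%) were less frequent, led by ACCACCCA (14.3% compared to 27.5%, Fisher's exact test, q = 2.5e-09), which overlaps the Gli motif and adds an A. None (0%) was more frequent at q below 0.05 by Fisher's exact test, and 504 were at an unadjusted p below 0.05. With the peaks over rRNA genes included, 158 8-mers (0.48%) were more frequent and 12 (0.0365%) less frequent. No other tool was run on 8-mers.

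**Figure D3:**
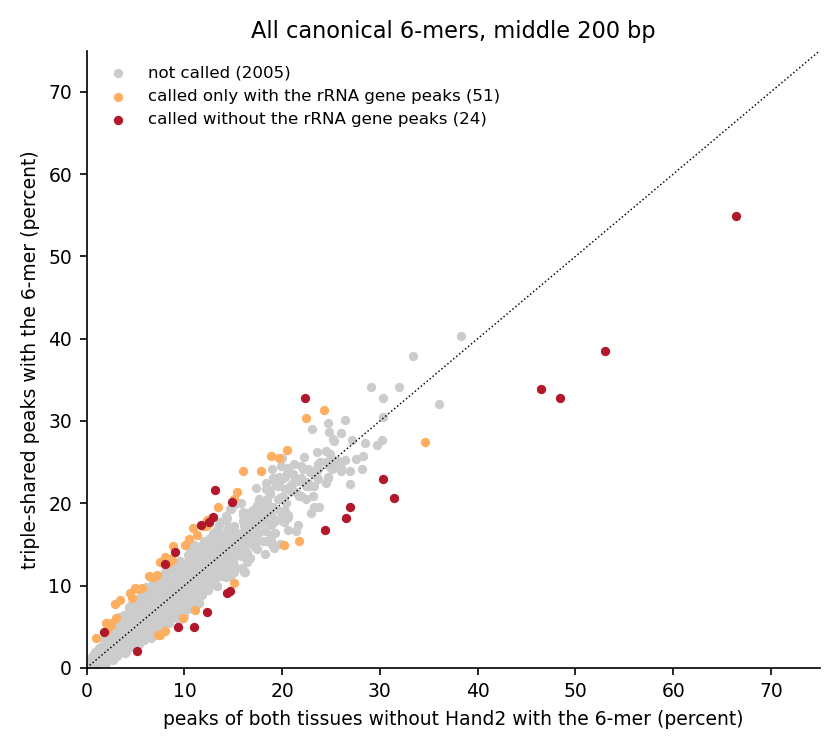
Each point is a 6-mer, counted together with its reverse complement, with its share of Gli3 peaks of both tissues without Hand2 (horizontal, percent) and of triple-shared peaks (vertical, percent), in the middle 200 bp. Of the 75 coloured 6-mers, 24 (red) were called without the peaks over rRNA genes, and the points far below the dotted line of equal shares include GACCAC and CCACCC, pieces of the canonical Gli motif, and CACCCA, which overlaps its end.

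Against the face-only peaks with Hand2, the triple-shared peaks differed in many more 6-mers, with 277 (13.3%) more frequent and 295 (14.2%) less frequent, and 243 (11.7%) and 250 (12%) without the peaks over rRNA genes. GC-rich 6-mers led: CCGCCC, the reverse complement of GGGCGG and the core of the site for Sp and Klf TFs, was present in 29.5% of triple-shared peaks and 15.4% of face-only peaks with Hand2 without the rRNA gene peaks (Fisher's exact test, q = 2.4e-15). AT-rich 6-mers were less frequent, such as ATTTTC in 9.97% compared to 17.5%. Of 8-mers, 206 (0.626%) were more frequent and 5 (0.0152%) less frequent with all peaks, and 10 (0.0304%) and 1 (0.00304%) without the peaks over rRNA genes. GACCACCC had the smallest p of the 10. The 8-mer that was less frequent was ATCAGAAA, present in 3 triple-shared peaks and 31 face-only peaks with Hand2.

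The 37 triple-shared peaks over rRNA genes (2.93%) lay within 85041 bp of chromosome 8, from 123538747 to 123623787, where the annotation places 51 rRNA genes, 41 of them named as 5S rRNA genes. 5S rRNA is transcribed by RNA polymerase III from a tandem array and becomes part of the large ribosomal subunit. The triple-shared peaks touched 37 of these genes. Of the other classes, 6 face-only peaks with Hand2 and no peak without Hand2 lay over an rRNA gene. None of the 37 held GACCACCC or CAGATG, and they shared sequence with each other, with 30 distinct windows among them. The nearest gene starts on either side of the array were those of *Gas8*, which encodes a ciliary dynein regulator, and *Rhou*, which encodes a small GTPase. These genes had the most neighboring triple-shared peaks (37 and 38). The first and the last triple-shared peak of the array each lay in an intron of a protein-coding gene. The 8-mers more frequent with all peaks included TACGGCCA, in 41 triple-shared peaks and no Gli3 peak of both tissues without Hand2. Reads from near-identical copies cannot be assigned to a copy with certainty, and no source used here says how such reads were treated. The part of read assignment in these calls was not tested.

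Like the other face peaks, triple-shared peaks were narrow and lay mostly away from genes' starts. Their median width was 221 bp (200 to 701 bp), beside 222 bp over the whole face list. Their midpoints were intergenic in 695 (55.1%), in an intron in 432 (34.3%), in a UTR in 110 (8.72%) and in coding sequence in 24 (1.90%). Intergenic shares were 48.5% in Gli3 peaks of both tissues without Hand2, and 54.7% and 52.1% in face-only peaks with and without Hand2. The median distance from the nearest protein-coding TSS was 18397 bp in the triple-shared peaks and 7748 bp in the Gli3 peaks of both tissues without Hand2, and 238 triple-shared peaks (18.9%) lay over 100 kb away. Promoter peaks made up 30.8% of triple-shared peaks and 35.3% of Gli3 peaks of both tissues without Hand2, an odds ratio of 0.818 (0.679 to 0.985; Fisher's exact test, p = 0.032). This call was lost without the peaks over rRNA genes (0.854, 0.709 to 1.03; Fisher's exact test, p = 0.094) and with promoters taken within 500 bp (0.948, Fisher's exact test, p = 0.59).

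The members sat well inside the peaks of the MNP lists. Of 1261, 909 (72.1%) were fully covered by MNP Gli3 peaks, 956 (75.8%) by Hand2 peaks and 694 (55.0%) by both, and 1260 had at least 1 base in all 3 lists, a median of 210 bases. They touched 1243 of 5424 MNP Gli3 peaks (22.9%) and 1248 of 59583 Hand2 peaks (2.09%). The touched Hand2 peaks had a median width of 659.5 bp, compared to 451 bp over the whole Hand2 list, while the touched MNP Gli3 peaks had 493 bp, compared to 577 bp. Wider peaks are also more likely to be touched, so these widths are a description. Another Hand2 peak lay within 10 kb of 888 triple-shared peaks (70.4%) and of 507 Gli3 peaks of both tissues without Hand2 (56.3%). The share was 992 of 1475 (67.3%) in the face-only peaks with Hand2, so it is not particular to the triple-shared peaks. A test against the Gli3 peaks of both tissues without Hand2 was run, but its p-value is left out because the Hand2 list chose the members.

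Few peaks stood near the limit of the rule. Just inside it, a peak at *Rai1* shared 1 bp with an MNP Gli3 peak and a peak near *Ssbp2* shared 16 bp, and a peak near *Lrfn2* shared 8 bp and a peak at *Spred2* 10 bp with a Hand2 peak. Just outside it, the peak at *Zfp36l1* ended 14 bp from an MNP Gli3 peak and that at *Dnajc16* 31 bp, and the peaks at *Stx5a* and *Psmd10* ended 1 bp from a Hand2 peak. Among peaks that missed only the MNP Gli3 list the median gap was 102193 bp, and among those that missed only the Hand2 list 7056 bp. When each list had to cover at least 50% of the face peak, 1180 members were left.

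The names of the merged face peaks hold the running number of the call in each replicate, against the mock ChIP. These call numbers begin at 1 and do not follow the genome, and no source used here says what orders them, so they are given as a description. They agreed between the replicates (Spearman's rank correlation 0.790 over 5752 peaks and 0.861 over the triple-shared peaks, with both replicates called in the same tissue). The median call number of triple-shared peaks was 1367 in replicate 1 and 1313 in replicate 2, compared to 1487 and 1541 for Gli3 peaks of both tissues without Hand2 and to 4239 and 3960 for face-only peaks with Hand2. Of the 575 peaks with the lowest call numbers, triple-shared peaks made up 344 (59.8%) in replicate 1 and 339 (59.0%) in replicate 2. The smaller class of Gli3 peaks of both tissues without Hand2 made up 197 and 201, so low call numbers are not particular to the triple-shared peaks. Of the 576 with the highest call numbers, triple-shared peaks made up 16 (2.78%) and 25 (4.34%).

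Low call numbers went with the canonical Gli motif. GACCACCC was present in 27.0% of triple-shared peaks among the 575 lowest call numbers in replicate 1 and 24.5% in replicate 2, and in 0% and 8% of those among the 576 highest, which are only 16 and 25 peaks. Classes were therefore also compared among peaks whose call number was at or below the median in both replicates. There GACCACCC was present in 177 of 933 triple-shared peaks (19.0%), compared to 207 of 646 Gli3 peaks of both tissues without Hand2 (32.0%; odds ratio 0.497, Fisher's exact test, p = 4.3e-09), close to the value over all peaks. CAGATG had an odds ratio of 2.06 against the same class, and against face-only peaks with Hand2 of 0.922 (0.686 to 1.25; Fisher's exact test, p = 0.60), so that difference was lost.

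**Figure D4:**
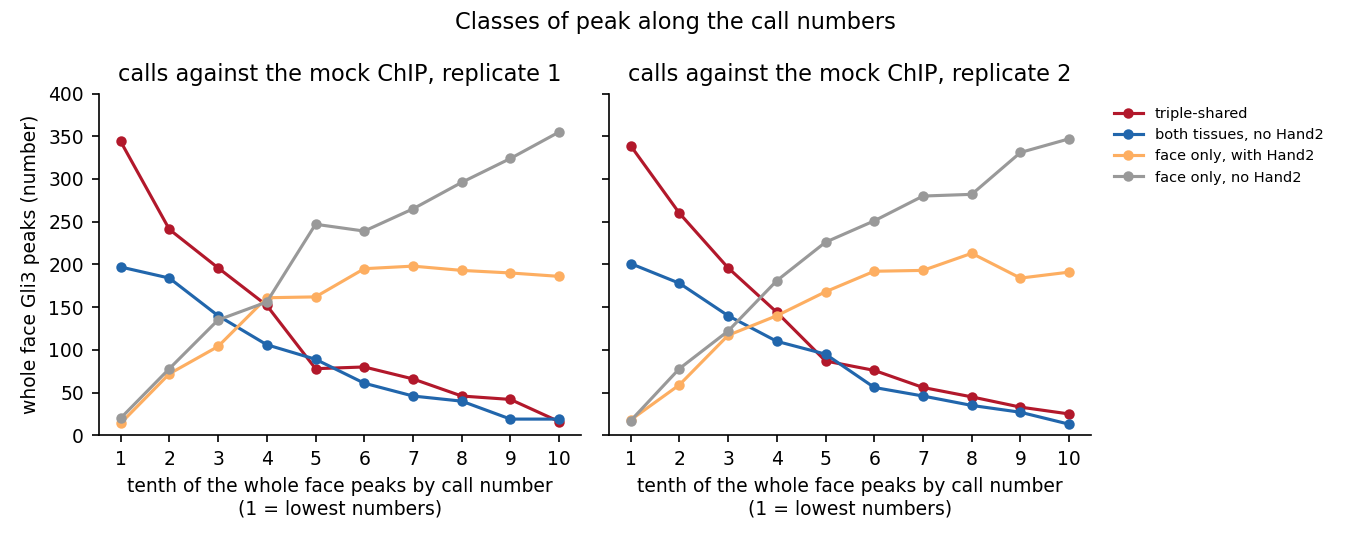
Number of whole face Gli3 peaks of each class in 10 bins of equal size by call number against the mock ChIP, for replicate 1 (left) and replicate 2 (right), with 1 the lowest numbers. Triple-shared peaks number 344 and 339 in the lowest bin and 16 and 25 in the highest. In the lowest bin, peaks of both tissues without Hand2 number 197 and 201 and face-only peaks with Hand2 14 and 18.

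The 10 triple-shared peaks with the lowest call numbers, taken as the sum over both replicates and picked after the values were seen, held GACCACCC in 7. The first, with call numbers 1 and 2, lay in an intron of *Gm12830*, 223 bp from its TSS and 86928 bp from *Foxd2*, which encodes a forkhead TF of the craniofacial mesenchyme. The second, with 4 and 8, lay 709 bp upstream of the nearest TSS of *Ptch1*. The third, with 7 and 6, lay in *Rab34*, which encodes a GTPase needed for primary cilia, the organelle in which Gli proteins are processed. The peak at *Prdm8* (18 and 13), whose product is a zinc finger TF of the nervous system and retina in mice, held 2 copies of GACCACCC, and it shared only 12 of 212 bp with a Hand2 peak. *Thrap3* (10 and 5), *Dusp23* (15 and 9) and *Rbm25* (28 and 10) were without GACCACCC.

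Ptch1 is the Hedgehog receptor and is itself induced by the pathway. Of protein-coding genes outside the rRNA array, *Ptch1* and its neighbor *Fancc* had the most triple-shared peaks next to them, with 9 each. Of these peaks, 7 on chromosome 13 were counted for both, 2 in an intron of *Ptch1* and 5 upstream of its nearest protein-coding TSS. The outermost start annotated for *Ptch1* lay beyond these 5, so they are not upstream of the whole gene. The 3 peaks with GACCACCC upstream of the nearest TSS of *Ptch1* are shown, with the motif or its reverse complement GGGTGGTC in capitals, on the plus strand.
Ptch1, 709 bp (chr13:63566420-63566457): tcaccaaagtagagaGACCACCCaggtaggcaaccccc
Ptch1, 3498 bp (chr13:63569271-63569308): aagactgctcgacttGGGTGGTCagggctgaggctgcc
Ptch1, 7762 bp (chr13:63573451-63573488): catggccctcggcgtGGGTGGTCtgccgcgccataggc

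These 3 peaks had call numbers of 4, 96 and 19 in replicate 1 and of 8, 136 and 37 in replicate 2. A peak in an intron 1460 bp from the TSS had 8 and 39 and held none of the motifs. The peak 1719 bp from the TSS stood apart, with call numbers of 9803 and 6825, and only 73 of its 279 bp were covered by MNP Gli3. A peak 36013 bp from the TSS, in an intron, held CAGATG without a Gli 8-mer. *Ercc6l2*, a DNA repair gene on the other side of *Ptch1*, had 8 triple-shared peaks next to it, of which 1 held GACCACCC and 2 CAGATG.

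**Figure D5:**
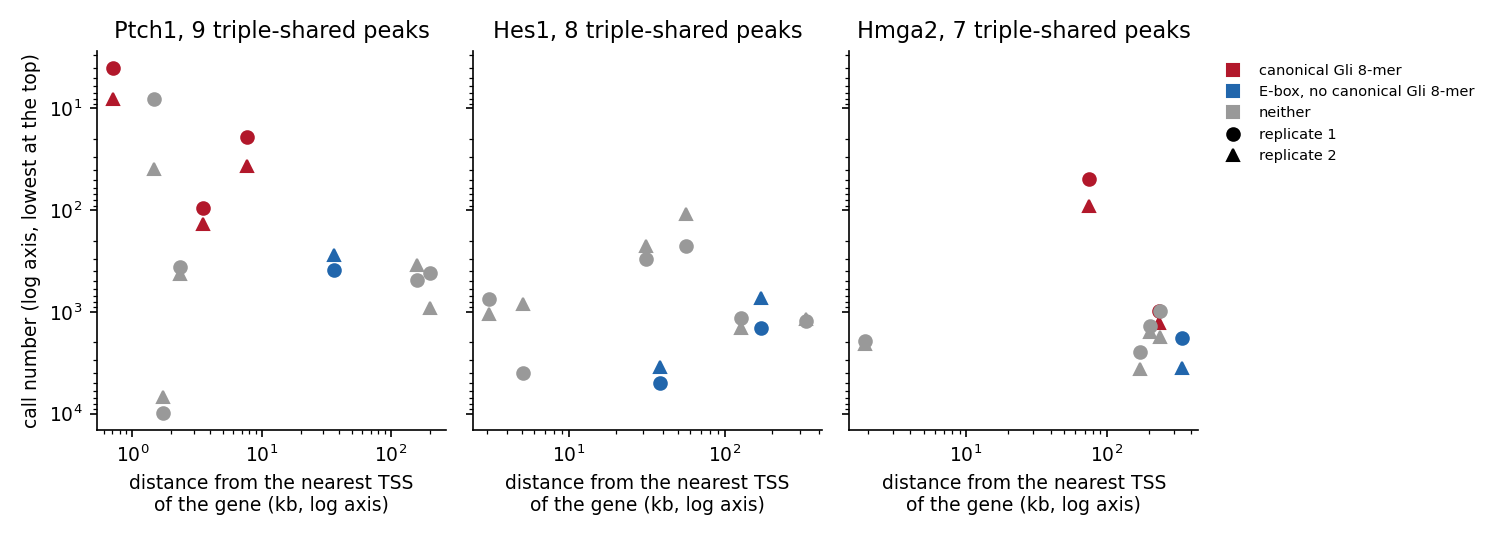
Call numbers (vertical, log axis, lowest at the top) of the triple-shared peaks next to *Ptch1*, *Hes1* and *Hmga2* against the distance of their midpoint from the nearest TSS of the gene (horizontal, log axis, kb), for replicate 1 (circles) and replicate 2 (triangles). Peaks with GACCACCC (red) lie at call numbers 4 to 136 upstream of the nearest TSS of *Ptch1*, none of the 8 peaks at *Hes1* holds it, and 2 of the 7 at *Hmga2* do.

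A protein-coding gene was counted as next to a triple-shared peak where it was the nearest on either side, which held for 1913 of 21911 genes (8.73%). The count takes no account of the length of the interval around a gene, and the gene lists were drawn up with earlier results of these data known, so the shares are descriptions. Of 26 genes of the Hedgehog pathway and its targets, 9 (34.6%) were next to a triple-shared peak. Among ligand-binding proteins these were *Ptch1* and *Hhip*, whose product sequesters Hedgehog ligands. The regulators of Gli proteins were *Sufu*, which encodes the cytoplasmic inhibitor, and *Kif7*, which encodes a ciliary kinesin and had a peak 92 bp from its TSS with a CAGATG. Targets that encode forkhead TFs made up the rest: *Foxf1*, *Foxf2*, *Foxd1*, *Foxd2* and *Foxl1*. No triple-shared peak was next to *Gli1*, *Gli2* or *Gli3*, or within 100 kb of them.

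The *Foxf2* peak, 1790 bp upstream of the TSS, had call numbers of 123 and 272 and held TAATTA but neither Gli 8-mer. The *Foxd1* peak, 19579 bp from the TSS, had 1434 and 1587 and held none of the 4 motifs. The *Hhip* peak at 256896 bp had call numbers of 24 and 34. The *Hhip* and *Foxd2* sequences show that peaks with a canonical motif and low call numbers also lay far from the named gene.
Hhip, 256896 bp (chr8:80314883-80314920, plus strand): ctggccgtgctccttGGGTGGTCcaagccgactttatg
Foxd2, 86928 bp (chr4:114822011-114822044, plus strand): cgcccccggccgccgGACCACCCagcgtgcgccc

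Of 30 genes of mandibular patterning, 16 (53.3%) were next to a triple-shared peak, among them *Dlx1*, *Dlx2*, *Dlx4*, *Dlx5* and *Dlx6*, homeobox genes that set the upper and lower identity of the jaw, *Msx1*, *Barx1*, *Lhx8*, *Pitx1*, *Prrx1* and *Twist1*. *Hand2* itself was next to 1, but 655562 bp away. *Prrx1*, a mesenchymal homeobox gene, had a peak 1415 bp upstream (call numbers 1017 and 846) with none of the motifs. The peak between *Dlx5* and *Dlx6* held 2 copies of GACCTCCC and the peak between *Dlx1* and *Dlx2* held a CAGATG. They are shown because each pairs jaw patterning genes with a different motif.
Dlx5, 6819 bp (chr6:6875216-6875295, plus strand): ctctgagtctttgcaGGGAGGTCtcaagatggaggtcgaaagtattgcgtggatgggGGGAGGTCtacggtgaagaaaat
Dlx1, 10266 bp (chr2:71538282-71538317, plus strand): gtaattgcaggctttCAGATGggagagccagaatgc

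Genes of the upper face and neural crest were next to triple-shared peaks in 12 of 21 (57.1%), including *Six2*, *Six4* and *Eya1*, whose products act together in the pharyngeal arches, and the nuclear receptor genes *Nr2f1* and *Nr2f2*. *Six4* had 2, the closest 76 bp from its TSS (call numbers 5754 and 5215). The closest peaks of *Six4* and *Nr2f1* held none of GACCACCC, GACCTCCC and CAGATG. *Nr2f2* had a peak 28983 bp away with TAATTA.

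Signaling pathways were represented by several members each. Of 39 genes of Bmp and Tgf-beta signaling, 16 (41.0%) were next to a triple-shared peak. Ligands included *Bmp2* and *Bmp7* (1 of the 3 peaks of *Bmp7* is printed above), and inhibitors included *Grem1* and *Smad6*, whose peak lay 136 bp from the TSS. *Id1*, *Id2*, *Id3* and *Id4* were all among them. Id proteins lack a DNA-binding region and hold basic helix-loop-helix TFs away from E-boxes. *Id1* had 4, of which the closest lay 976 bp upstream (call numbers 1546 and 1578) and the peak 3153 bp away held CAGATG. *Id3* had a peak 1184 bp from its TSS in an intron (614 and 697), of which 92 of 221 bp were covered by Hand2.

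Of 22 Notch genes, 6 (27.3%) were next to a triple-shared peak. *Jag1*, a ligand, had 3, the closest 942 bp upstream (call numbers 1819 and 880). *Hes1*, a transcriptional repressor induced by Notch, had 8, between 3093 and 330345 bp from its TSS, of which none held GACCACCC and 2 held CAGATG. *Heyl* and *Hey1* are repressors of the same family, and *Rbpj* and *Maml3* encode the DNA-binding subunit and a coactivator of the Notch complex. Of 50 Wnt genes, 12 (24%) were next to one, among them the ligand *Wnt5a*, the receptors *Fzd2*, *Fzd4* and *Fzd10* and the TFs *Lef1* and *Tcf7l2*. Of the 30 Fgf genes in the annotation, 7 (23.3%) were, with *Fgf10*, a ligand of mesenchyme, at 335 bp with 2 CAGATG, and the feedback inhibitors *Spred2*, *Dusp6* and *Il17rd*.

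Differentiation genes were next to triple-shared peaks in 7 of 19 for cartilage (36.8%), 4 of 18 for bone (22.2%) and 7 of 24 for skeletal muscle (29.2%). *Col11a1*, which encodes a cartilage collagen, had a peak 31 bp from its TSS (call numbers 3965 and 1843). *Sp7*, which encodes the TF that osteoblasts need, had a peak 3999 bp upstream (379 and 228) with CAGATG, and *Runx3* a peak in an intron 13973 bp from its TSS (152 and 103) with GACCTCCC. *Plagl1*, a zinc finger TF gene, had a peak in an intron 26593 bp from its TSS (747 and 798) with CAGATG and no Gli 8-mer. *Myh6* and *Maf* were not next to any triple-shared peak, although a peak lay 39995 bp from *Myh6*, with other genes between.
Plagl1, 26593 bp (chr10:13117412-13117447, plus strand): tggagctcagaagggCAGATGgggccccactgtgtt

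Of 25 genes of chromatin and the cell cycle, 9 (36%) were next to a triple-shared peak. *Mycn*, a basic helix-loop-helix proto-oncogene, had 5, the closest 153 bp from its TSS in the UTR (call numbers 4685 and 3474), and *Kmt2a*, which encodes a histone H3 methyltransferase, a peak 118 bp upstream (256 and 225), both with CAGATG. The counts for genes of cell types that are not mandibular mesenchyme, with no test, were 2 of 20 for neurons (10%), 3 of 17 for epithelium (17.6%), 3 of 18 for blood and endothelium (16.7%) and 1 of 15 for liver (6.67%), beside 8.73% of all genes. With the gene of the single nearest TSS within 100 kb in place of the nearest on both sides, 869 genes were counted, and 1260 without promoter peaks. By nearest TSS, Hedgehog genes numbered 6, mandibular patterning 11, upper face and neural crest 5 and cartilage 2. Bone and skeletal muscle had 4 each, Notch 5, Fgf and chromatin and cell cycle 6 each, and Wnt and Bmp and Tgf-beta 8 each. Neurons and liver had 0, epithelium 2 and blood and endothelium 1.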

How the data were processed

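ChIP-seq with an anti-FLAG antibody was performed on 3 groups of 2 replicates each. The authors aligned 1 × 75 bp reads with bwa to mm10, which is GRCm38, and used bedtools to merge the peak calls of both replicates. Versions are not given, and the submitters' processing notes also name HOMER. The deposited files hold peak start and end positions and call names, other values than counts or signal, without a score. No source used here names the caller of the face peaks.

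Peaks on chromosomes 1 to 19, X and Y were classed by a shared base (at least 1 bp). Sequence came from the GRCm38 reference, with rRNA genes and protein-coding TSSs (21938 genes) from its GENCODE annotation and tRNA genes from RefSeq. All chromosome lengths fitted. Exact motifs were counted on both strands of the middle 200 bp. Classes were compared by two-sided Fisher's exact tests on peaks with conditional odds ratios, 95% exact intervals, Wilson intervals for shares and Newcombe intervals for differences. Benjamini-Hochberg q covered all 2080 6-mers or 32896 8-mers. Intervals cover counting error only, and depth is unknown. Python 3.11.15, numpy 2.4.6, scipy 1.17.1 and statsmodels 0.14.6 were used. Programs were tested on simulated data.

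The members, gene lists and tests were chosen with earlier results of these data known. Genes named were those the study names beside these data, up to 4 of each list closest to a member within 100 kb, the 5 with the most members, and the 6 closest motif pairs of each kind; others, such as *Hmga2* and the examples listed by name only, were chosen after their values were seen. Some genes the rule selects are left out here. Leaving out the rRNA gene peaks, the call number limit and the moved window were alternatives chosen after seeing the data.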

Additional observations from a re-analysis of the deposited data

How the results depend on the processing

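Of 113 values recomputed under other settings, 86 stayed the same, 16 lost the call, 1 gained it and 10 counts moved by over 1.5 times. None reversed. The same meant the same direction and side of the threshold or, for counts, a change of at most 1.5 times. The 86 include 8 settings of the share with another Hand2 peak within 10 kb, which the rule affects. Tests that are not independent of the rule gave a further 9 for CAGATG against Gli3 peaks of both tissues without Hand2. They also gave 10 for GACCACCC against face-only peaks with Hand2. The 86 also include results without a call that stayed so, 8 for the fifth base and 9 for GACCTCCC against face-only peaks with Hand2. GACCACCC kept its call in both comparisons under all 10 settings. Values are odds ratios unless said otherwise, and causes were not tested. Promoter share against Gli3 peaks of both tissues without Hand2 lost its call with peaks of median width or more (0.849), promoters within 500 bp (0.948), no rRNA gene peaks (0.854) and low call numbers (0.825). GACCTCCC against the same class lost it with 50% coverage (0.743), midpoints (0.757), wide peaks (0.846), the middle 100 bp (0.634), no promoters (0.712), no rRNA gene peaks (0.709) and low call numbers (0.689). CAGATG lost it with wide peaks (1.39). Against face-only peaks with Hand2, GACCTCCC gained it with midpoints (1.47), and CAGATG lost it with the middle 100 bp (0.844), no promoters (0.846), the logistic model (0.920) and low call numbers (0.922). The 6-mers called numbered 75 against the first class, and 5 with wide peaks, 45 in 100 bp, 24 without rRNA gene peaks and 14 with low call numbers. Against face-only peaks with Hand2 they numbered 572, and 286 with wide peaks, 264 in 100 bp, 148 without promoters and 124 with low call numbers. Genes next to a triple-shared peak numbered 1913, and 869 by nearest TSS and 1260 without promoters. No paired analysis was possible because each list merges both replicates, and for the same reason no replicate could be left out.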

Other observations

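Within the triple-shared peaks the motifs lay closer to the middle of the face Gli3 peak than to that of the Hand2 peak. GACCACCC lay a median of 41 bp from the face midpoint and 121.5 bp from the Hand2 midpoint, and CAGATG 37 bp and 85.5 bp. The Hand2 peaks are wider, and only motifs within the middle of the face peak were counted, so the order of these distances is in part set by the count.

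A further 9 triple-shared peaks lay over tRNA genes, of 403 annotated, which RNA polymerase III also transcribes. The Gli3 peaks of both tissues without Hand2 had 6 such peaks, face-only peaks with Hand2 0 of 1475 and face-only peaks without Hand2 3. Of the 9, 5 lay near *Fcgr3* on chromosome 1, and the others near *Alox5ap*, *Wnt11*, *Sacm1l* and *Zfp692*, all chosen after their values were seen, and none held a Gli 8-mer or CAGATG.

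The E-box CAGATG and the homeodomain site TAATTA lay within 50 bp of each other in 11 of the 19 triple-shared peaks that held both, with at most 2 peaks at the same spacing and orientation. Over all Hand2 peaks 562 of 1082 did, with at most 25 peaks at the same spacing, where the median over spacings was 6.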
